A study of Mus musculus with 12 samples.

Results

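The enzymes described here detoxify peroxides, superoxide and electrophiles: the glutathione peroxidases (Gpx), catalase (Cat), the superoxide dismutases (Sod), the peroxiredoxins (Prdx), the thioredoxins and their reductases (Txn, Txnrd), the enzymes that make and recycle glutathione (Gclc, Gclm, Gss, Gsr), the glutathione transferases (Gst, Mgst), and Nqo1 and Hmox1. They were chosen by gene symbol alone, by family name plus number and by 7 single symbols, and 54 of the 33641 gene symbols in the table matched. Whole-tissue RNA was sequenced from the myocardium of male C57BL/6 WT mice in 4 groups of 3: sham surgery with vehicle, sham surgery with weekly prednisone, myocardial infarction (MI) with vehicle, and MI with weekly prednisone. Prednisone is a synthetic glucocorticoid. It was given intraperitoneally at 1 mg/kg once a week at lights-on (ZT0) for 6 weeks, from 2 weeks after surgery. Mice were about 10 weeks old at treatment and about 16 weeks old in the sample labels, and hearts were collected 24 hours after the final dose. All groups carried the wild-type genotype and a surgery, and the labels do not say which region of the infarcted heart was sampled.

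Glutathione is the main small thiol of the cell. Glutamate-cysteine ligase (catalytic subunit Gclc, modifier subunit Gclm) and glutathione synthetase (Gss) make it, the Gpx and Gst enzymes spend it on peroxides and electrophiles, and glutathione reductase (Gsr) restores it with NADPH. The thioredoxin system runs in parallel: thioredoxin reductases, which are selenoproteins, reduce thioredoxins, and these reduce the peroxiredoxins. Many of these genes, Txnrd1, Gclm, Gsr, Nqo1 and Hmox1 among them, are textbook targets of the transcription factor NRF2 (Nfe2l2), which binds antioxidant response elements. They are also targets of the repressor Bach1. In the heart, mitochondria are the main source of superoxide, and Sod2, Prdx3, Prdx5, Txn2 and Txnrd2 act there.

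Values are TPM (transcript levels corrected for transcript length and scaled to the same total in every library), which keep no read depth, so depth is unknown. Between 11690 and 14307 genes reached 1 TPM in a library, and mitochondrially encoded transcripts took 21.6% to 42.0% of TPM. Cardiomyocyte markers (8 of 8 present in every library) summed to 26360.5 to 43817 TPM. MI vehicle replicate 3 stood apart, with the most genes at 1 TPM, 23.1% mitochondrial transcripts and lymphocyte markers at 631 TPM against 2.66 to 37.9 TPM in the other 11 libraries. That library and MI prednisone replicate 2 also held RNA of 8 airway and alveolar epithelium markers (Scgb1a1, Scgb3a2, Cyp2f2, Bpifa1, Foxj1, Sftpa1, Sftpb, Sftpc), a list added after the values were seen. These markers summed to 8744 and 13412 TPM there. They reached 1783 TPM in MI prednisone replicate 3, 494 TPM in MI vehicle replicate 1, 311 and 142 TPM in sham vehicle replicates 1 and 2, and 0.188 to 7.11 TPM in the other 6 libraries. In the sham prednisone group 7 of the 8 markers were at 0 in at least 1 library, in each vehicle group 3 were, and in the MI prednisone group none was. Counts of called genes are therefore also given without MI vehicle replicate 3 and MI prednisone replicate 2, whereas role medians, transcripts and pathway lists are given with all libraries only.

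Of the 54 genes, 47 reached 1 TPM in at least 3 libraries and entered the test over 13158 genes. The other 7 (Gpx2, Gpx5, Gpx6, Gstm3, Gsto2, Gstp3 and Gstt4) had means of 0 to 1.43 TPM over the 12 libraries. Together the 54 genes made up 3753 to 5803 TPM, with the lowest sum in sham vehicle replicate 3 and the highest in MI prednisone replicate 2. The most abundant gene was Gpx4, which reduces lipid hydroperoxides inside membranes, at a mean of 813 TPM, followed by Sod1, the cytosolic copper-zinc dismutase, at 403 TPM, and Gpx3, the secreted plasma peroxidase, at 295 TPM. Among the peroxiredoxins, cytosolic Prdx2 and mitochondrial Prdx5 led at 284 and 262 TPM. The leading transferases were Gstp1 (173 TPM), Mgst3 (150 TPM) and Gstm1 (148 TPM). The enzymes of glutathione synthesis and reduction were far lower, from 5.18 TPM for Gclc to 18.5 TPM for Gclm. Several families sit in gene clusters (GRCm38): 7 Gstm genes at chr3:107895821-108044894, 4 Gstt genes at chr10:75774115-75837424, 3 Gsta genes at chr9:78182774-78355788 and 3 Gstp genes at chr19:4035407-4059569.

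Near-identical copies make some of these values uncertain. In the main transcript of Gsta1, 92.2% of all 31-base stretches also occur in another gene; the share was 78.1% for Gstp2, 75.6% for Gsta2, 74.1% for Gpx4 (nearly all in a pseudogene, Gpx4-ps2), 67.5% for Gstp1, 59.6% for Prdx1, 35.4% for Sod1 and 34.3% for Gstm1. For Txnrd1, Hmox1, Gsr, Nqo1, Cat, Gclm, Prdx3, Prdx5, Gpx7 and Gpx8 it was 0%.

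**Figure D1:**
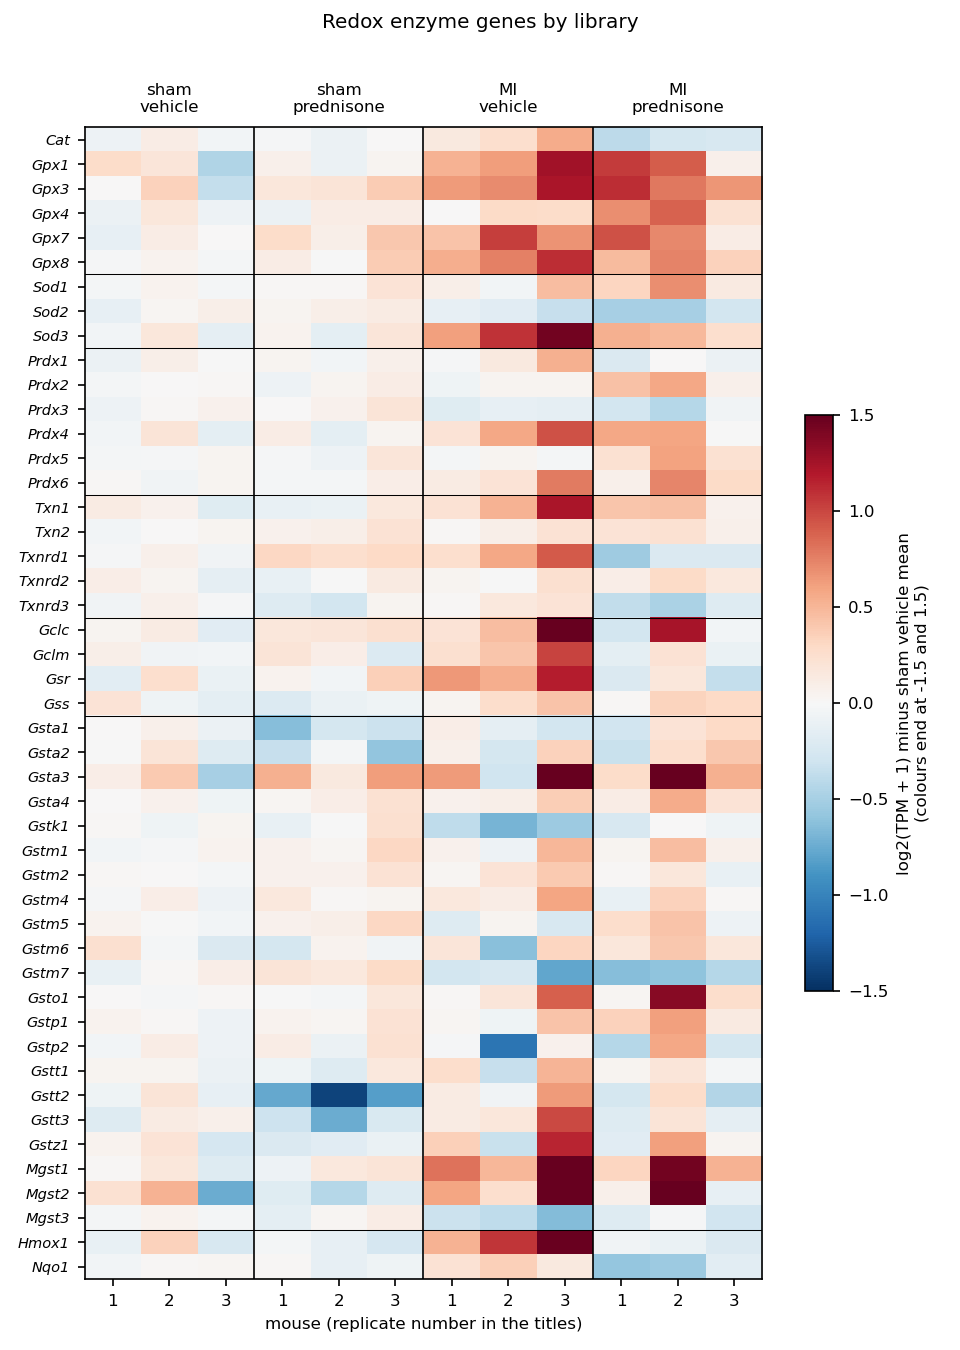
Level of the 47 tested genes in each of the 12 libraries, as log2(TPM + 1) minus the sham vehicle mean; rows are genes grouped by role, columns are mice, and colours end at -1.5 and 1.5. Hmox1, Sod3 and Gpx8 are above the sham vehicle mean in all 3 MI vehicle mice, Txnrd1 is below it in all 3 MI prednisone mice, and Gclc, Gsta3, Mgst1 and Mgst2 stand out in MI vehicle mouse 3 and MI prednisone mouse 2.

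Promoter sequence was examined because the textbook regulator of these genes reads a defined DNA motif. The core of the antioxidant response element, TGACNNNGC, was searched on both strands of the 300-base windows around annotated gene starts (RefSeq, GRCm38.p6). It occurred in 8 of the 47 genes that had a window, 17.0%, and in 14.0% of all 27025 genes with a window. Counted by window, it occurred in 8 of 61 windows, 13.1%, against 12.4% of all 32851. The 8 were Gclm, Gsta3, Gstm5, Gstm7, Mgst1, Prdx1, Sod1 and Txnrd1. Windows were not listed for Gclc, Gsr, Gsta4, Gstt2, Hmox1, Prdx6 and Sod3. A match is a description of letters and no evidence of binding. The windows of Txnrd1, Gclm and Prdx1, each with 1 match shown in capitals, and of Nqo1, without a match, are printed because their transcripts differed between MI groups in the results below. Txnrd1 also has windows at chr10:82833701-82834000 and chr10:82860091-82860390, both without a match. Its printed window was chosen for having one. The order is 5′ to 3′ on the gene's strand: Txnrd1 chr10:82858956-82859255, plus; Gclm chr3:122245307-122245606, plus; Prdx1 chr4:116685349-116685648, plus; Nqo1 chr8:107403156-107403455, minus.
Txnrd1: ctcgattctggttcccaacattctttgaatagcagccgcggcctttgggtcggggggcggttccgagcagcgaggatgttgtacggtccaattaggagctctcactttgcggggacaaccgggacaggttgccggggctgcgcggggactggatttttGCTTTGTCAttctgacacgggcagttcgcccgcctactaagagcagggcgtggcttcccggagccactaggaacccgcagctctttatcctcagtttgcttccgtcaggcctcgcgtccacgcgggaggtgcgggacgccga
Gclm: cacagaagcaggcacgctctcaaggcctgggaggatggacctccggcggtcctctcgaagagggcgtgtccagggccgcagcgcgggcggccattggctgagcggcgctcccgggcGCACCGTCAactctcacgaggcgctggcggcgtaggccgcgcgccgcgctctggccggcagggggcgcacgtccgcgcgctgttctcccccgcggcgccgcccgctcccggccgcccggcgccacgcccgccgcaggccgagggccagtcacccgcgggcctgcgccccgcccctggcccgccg
Prdx1: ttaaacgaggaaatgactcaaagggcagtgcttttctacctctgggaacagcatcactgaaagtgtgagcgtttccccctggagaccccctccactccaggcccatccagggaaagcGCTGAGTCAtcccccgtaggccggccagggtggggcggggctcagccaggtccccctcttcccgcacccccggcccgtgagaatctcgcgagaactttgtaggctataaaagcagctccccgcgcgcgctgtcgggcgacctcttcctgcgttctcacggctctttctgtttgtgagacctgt
Nqo1: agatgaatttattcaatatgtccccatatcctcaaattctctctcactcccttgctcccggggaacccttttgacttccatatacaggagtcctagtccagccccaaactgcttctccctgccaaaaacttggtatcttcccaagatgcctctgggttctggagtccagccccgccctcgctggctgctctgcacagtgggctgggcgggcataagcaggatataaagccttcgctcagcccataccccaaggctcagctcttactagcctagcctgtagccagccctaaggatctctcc

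The first comparison asked what infarction changed without the drug. Against sham vehicle, 7 of the 47 genes rose in MI vehicle hearts (Sod3, Hmox1, Gpx3, Gpx8, Gsr, Gpx7 and Txnrd1) and 2 fell (Gstk1 and Mgst3), by limma with Benjamini-Hochberg adjustment over all genes at an adjusted p under 0.05. Over all 13158 genes 16% were called, 15.1% higher and 0.904% lower, so the 9 of 47 (19.1%) are close to the background. The groups did not overlap for 21 genes that were higher and 4 that were lower, against 40.8% and 4.17% of all genes. The median log2 change was 0.24 over the 47 genes and 0.39 over all genes. Rescaling every library by median ratios moved the median of all genes to 0.00, and 4 of the 47 were then called against 6.46% of all genes: Sod3 and Hmox1 higher (3.24% of all genes), Gstk1 and Mgst3 lower (3.22%). Changes are therefore also given relative to the median gene. The rescaling divided MI vehicle replicate 3 by 1.69 and the other libraries by 0.864 to 1.13. It thus changed that heart the most, the one that stood apart in lymphocyte and airway markers.

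Among the dismutases, Sod3, the extracellular enzyme bound to matrix (chr5:52363791-52371418), measured 8.71, 10.2 and 8.08 TPM in sham vehicle and 14.2, 20.1 and 26.2 TPM in MI vehicle hearts. Every MI vehicle heart was above every sham heart of either treatment. The change was 1.05 on the log2(TPM + 1) scale (SE 0.19, adjusted p = 0.0114), 0.66 above the median gene. Hmox1, which breaks down heme (chr8:75093621-75100589), measured 5.99, 8.59 and 5.38 TPM in sham vehicle and 9.85, 14.9 and 20.0 TPM in MI vehicle hearts, without overlap. It rose by 1.03 (SE 0.22, adjusted p = 0.0185), 0.63 above the median gene. Sod1 measured 349, 371 and 350 TPM in sham vehicle and 378, 347 and 491 TPM in MI vehicle hearts, so the groups overlapped (0.17, adjusted p = 0.388). Mitochondrial Sod2 was at 117 ± 8.79 and 101 ± 8.14 TPM (SD, n = 3), also overlapping (-0.21, adjusted p = 0.133).

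Of 6 tested peroxidases including catalase, 3 rose. Secreted Gpx3 measured 202, 255 and 157 TPM in sham vehicle and 314, 329 and 471 TPM in MI vehicle hearts, a change of 0.86 (SE 0.20, adjusted p = 0.0216). Gpx7 and Gpx8 are peroxidases of the endoplasmic reticulum. Gpx8 measured 18.4, 19.3 and 18.2 TPM against 27.7, 32.3 and 41.5 TPM, a change of 0.81 (SE 0.16, adjusted p = 0.0145). Gpx7 measured 4.80, 5.80 and 5.32 TPM against 7.45, 11.9 and 9.0 TPM, a change of 0.71 (SE 0.22, adjusted p = 0.0489). None of the 3 overlapped between the groups, and they lay 0.47, 0.42 and 0.32 above the median gene. Under rescaling none of the 3 was called (adjusted p = 0.112, 0.0544 and 0.404). Cytosolic Gpx1 was at 130 ± 32.8 TPM and 228 ± 67.1 TPM (SD, n = 3), and Cat at 95.2 ± 6.62 and 120 ± 18.5 TPM, without overlap but with adjusted p = 0.0633 and 0.0697. Gpx4 overlapped (645, 772 and 653 TPM against 691, 839 and 835 TPM).

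In the reductase pair, Gsr (chr8:33652523-33698163) measured 6.90, 9.58 and 7.29 TPM in sham vehicle and 12.9, 11.9 and 19.0 TPM in MI vehicle hearts. It rose by 0.79 (SE 0.21, adjusted p = 0.0314). Cytosolic Txnrd1 (chr10:82833951-82897712) measured 15.6, 16.7 and 15.2 TPM against 19.1, 24.1 and 30.7 TPM and rose by 0.59 (SE 0.16, adjusted p = 0.0344). The groups did not overlap for either gene, and relative to the median gene the changes were 0.40 and 0.19. None of the other 4 genes for thioredoxins and their reductases and none of the 6 peroxiredoxins was called. Mitochondrial Txn2 measured 141, 146 and 151 TPM against 147, 155 and 170 TPM, and mitochondrial Prdx3 was at 134 ± 6.33 and 121 ± 2.54 TPM (SD, n = 3).

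Both genes that fell are transferases. Gstk1, the kappa-class enzyme of mitochondria and peroxisomes, measured 65.5, 61.7 and 66.8 TPM in sham vehicle and 49.4, 39.3 and 44.1 TPM in MI vehicle hearts, a change of -0.54 (SE 0.12, adjusted p = 0.0196). Membrane-bound Mgst3 measured 162, 172 and 162 TPM against 132, 127 and 105 TPM, a change of -0.45 (SE 0.11, adjusted p = 0.0289). For each gene the 3 MI vehicle hearts lay below all 3 sham vehicle hearts, and relative to the median gene the changes were -0.93 and -0.84. The mu-class enzyme Gstm7 was also lower without overlap (27.9 ± 2.06 and 20.7 ± 4.20 TPM) but was not called (-0.43, adjusted p = 0.0588). The median of the 21 tested transferases was 0.16 as deposited and turned to -0.28 under rescaling.

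These counts leaned on single libraries. Shares of all genes are not given for fits that left libraries out, here and below. Such counts describe the calls and no trait of the 47 genes. Without sham vehicle replicate 1 or replicate 3 none of the 47 was called, without MI vehicle replicate 3 there were 4, and without MI vehicle replicate 1 there were 16. Without MI vehicle replicate 3 and MI prednisone replicate 2 together 5 were called: Gpx8, Hmox1, Sod3 and Gstk1 kept their call, and Mgst1, a membrane-bound transferase, was added. Fibroblast markers were higher in the same hearts (8 of 8 called, summed 432 to 580 TPM in sham vehicle and 987 to 1233 TPM in MI vehicle, none at 0), as were macrophage markers (8 of 8 called, 274 to 391 and 615 to 1344 TPM, none at 0), while cardiomyocyte markers were lower (2 of 8 called). Under rescaling 3 of 8 fibroblast and 3 of 8 macrophage markers were called higher. In bulk tissue a change in the share of a cell type and a change of RNA per cell cannot be told apart, and the part of cell content in these results was not tested. The labels name no batch.

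**Figure D2:**
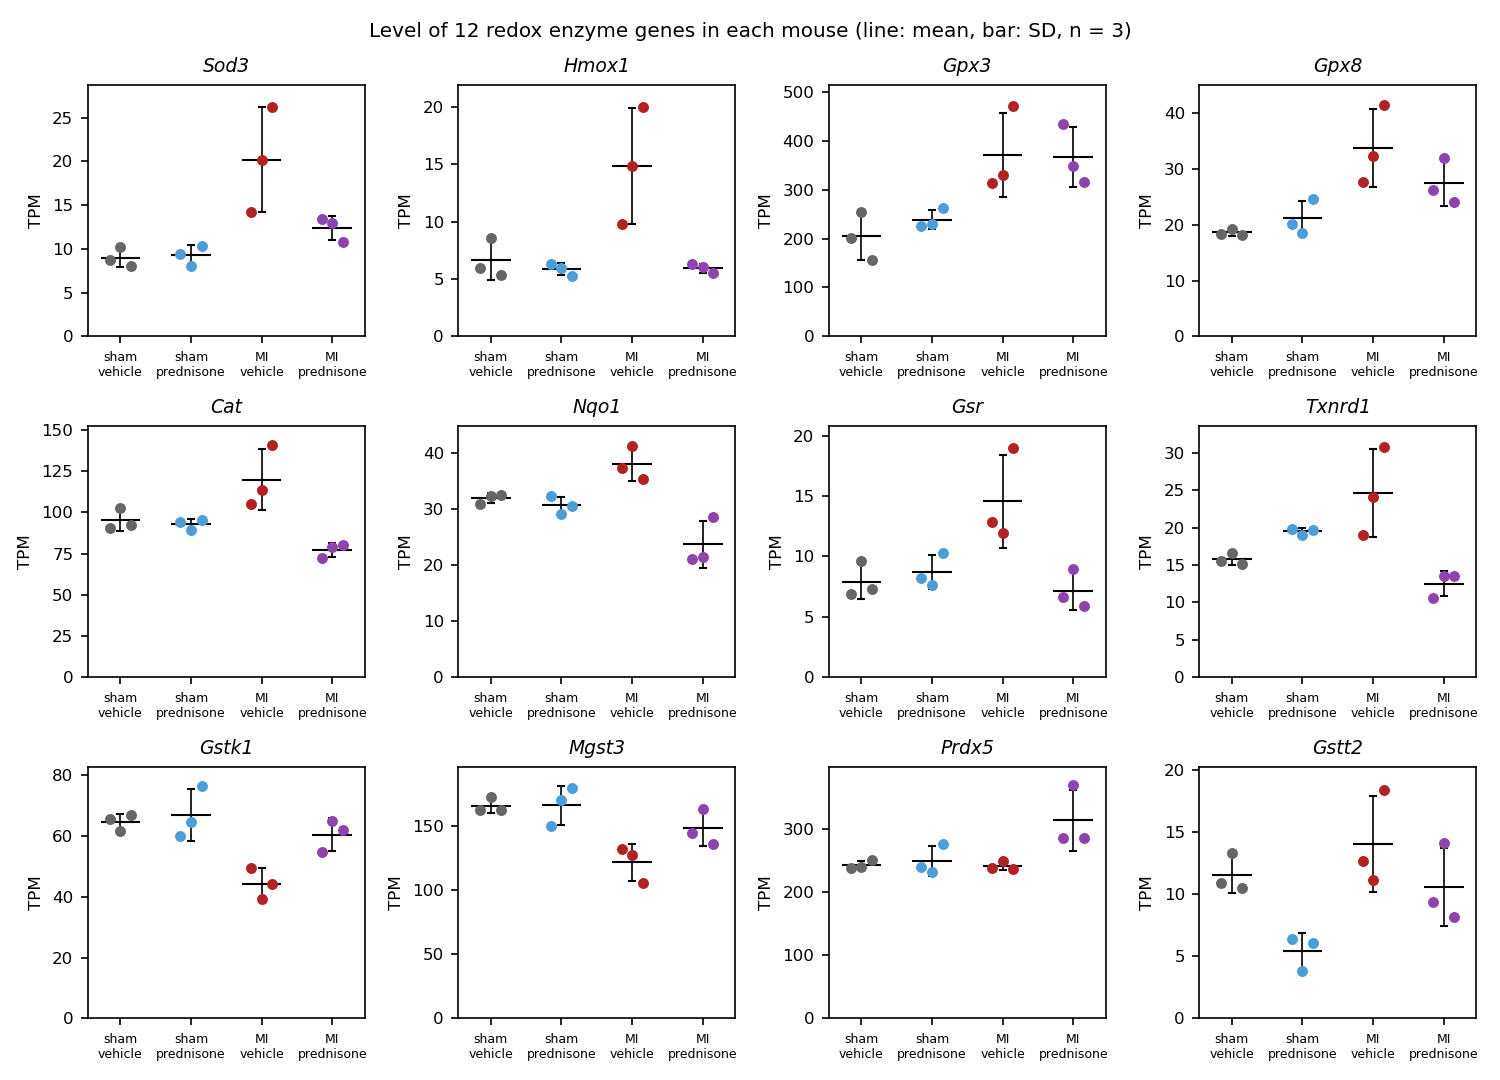
Gene level in TPM (y axis, from 0) in each mouse of the 4 groups (x axis) for 12 genes; points are mice, lines means and bars SD (n = 3). Sod3, Hmox1 and Gpx8 have their highest means in MI vehicle hearts, Txnrd1, Nqo1 and Cat are lowest in MI prednisone hearts, the means of Gstk1 and Mgst3 are lowest in MI vehicle hearts, and Gstt2 is lowest in sham prednisone hearts.

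The next comparison asked what prednisone changed in infarcted hearts. Against MI vehicle, 8 of the 47 genes fell (Hmox1, Gsr, Txnrd1, Nqo1, Sod3, Cat, Gclm and Txnrd3) and 3 rose (Gstk1, Prdx5 and Prdx2). Over all genes 37.4% were called, 34.9% lower and 2.5% higher, so the 11 of 47 (23.4%) are below the background share. The groups did not overlap for 4 genes that were higher and 8 that were lower, against 3.59% and 42.6% of all genes. The median log2 change was -0.12 over the 47 genes and -0.41 over all genes. Rescaled, the median of all genes was -0.02, and 17 of the 47 were called against 28.2% of all genes, 14 higher and 3 lower (14.3% and 13.8% of all genes). The 3 lower under both scalings were Hmox1, Gsr and Txnrd1, and the 3 higher under both were Gstk1, Prdx2 and Prdx5. This comparison shares the MI vehicle hearts with the one above, so opposite signs in the pair are not independent. By role, both quinone and heme enzymes fell, as did 2 of 4 genes of glutathione synthesis and reduction, 2 of 5 of the thioredoxin system, 1 of 3 dismutases and 1 of 6 peroxidases, with medians of -0.91, -0.51, -0.35, -0.21 and -0.12. In the other roles 2 of 6 peroxiredoxins (median -0.06) and 1 of 21 transferases (median 0.05) rose. Under rescaling the medians were -0.47, -0.09, 0.11, 0.25, 0.31, 0.40 and 0.49 in the same order, so those of the thioredoxin system, dismutases, peroxidases and peroxiredoxins turned positive.

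Hmox1 measured 6.29, 6.01 and 5.49 TPM in MI prednisone hearts, against the 9.85 to 20.0 TPM of MI vehicle. The change was -1.15 (SE 0.22, adjusted p = 0.00369), -0.74 relative to the median gene. It stayed called in each of 6 fits that left out 1 library, from -1.40 to -0.92, and in all 11 other alternative fits. Nqo1, which reduces quinones (chr8:107388225-107403206), measured 37.4, 41.3 and 35.4 TPM in MI vehicle and 21.1, 21.5 and 28.5 TPM in MI prednisone hearts, without overlap. It fell by 0.67 (SE 0.12, adjusted p = 0.00278), and -0.26 remained relative to the median gene. Under rescaling it was not called (-0.22, adjusted p = 0.445).

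Txnrd1 measured 10.6, 13.5 and 13.5 TPM in MI prednisone hearts. All 3 lay below all 9 other libraries, whose lowest value was 15.2 TPM. Against MI vehicle the change was -0.91 (SE 0.16, adjusted p = 0.00221), -0.50 relative to the median gene. Gsr measured 6.63, 8.93 and 5.89 TPM, below the 11.9 to 19.0 TPM of MI vehicle and overlapping sham vehicle. It fell by 0.92 (SE 0.21, adjusted p = 0.00642), -0.52 relative to the median gene. Txnrd3, a thioredoxin-glutathione reductase, measured 6.18, 6.90 and 7.19 TPM in MI vehicle and 4.50, 4.09 and 5.17 TPM in MI prednisone hearts. Its change was -0.48 (SE 0.13, adjusted p = 0.0168), of which -0.07 remained relative to the median gene, and it turned to 0.015 when the values were corrected for transcript length.

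Cat, the peroxisomal catalase (chr2:103453849-103485160), measured 105, 113 and 141 TPM in MI vehicle and 72.1, 79.2 and 80.1 TPM in MI prednisone hearts, which were also below all 6 sham hearts. It fell by 0.62 (SE 0.11, adjusted p = 0.00288), -0.21 relative to the median gene. Sod3 measured 13.4, 12.9 and 10.8 TPM in MI prednisone hearts, under the lowest MI vehicle value of 14.2 TPM and above all 6 sham hearts. The change was -0.63 (SE 0.19, adjusted p = 0.0269), -0.22 relative to the median gene. Gclm measured 19.3, 22.0 and 33.6 TPM against 14.6, 19.0 and 15 TPM, a narrow gap with no overlap. The change was -0.57 (SE 0.19, adjusted p = 0.0396), -0.16 relative to the median gene. Under rescaling none of Cat, Sod3 and Gclm was called (adjusted p = 0.252, 0.224 and 0.531).

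Of the 3 that rose, Gstk1 measured 54.5, 64.9 and 61.8 TPM in MI prednisone hearts, above the 39.3 to 49.4 TPM of MI vehicle and overlapping sham. The change was 0.44 (SE 0.12, adjusted p = 0.0159). Prdx5 measured 239, 250 and 238 TPM in MI vehicle and 286, 370 and 286 TPM in MI prednisone hearts, which lay above all 9 other libraries. The change was 0.36 (SE 0.11, adjusted p = 0.0278). Prdx2, a peroxiredoxin that is also abundant in red cells, measured 251, 271 and 271 TPM against 358, 392 and 278 TPM. Its change was 0.36 (SE 0.12, adjusted p = 0.0360), and it turned to -0.052 when only protein-coding transcripts were summed. None of 7 tested erythroid markers was called in this comparison, and their 8-gene sums overlapped (37529 to 96409 TPM in MI vehicle, 47633 to 98120 TPM in MI prednisone). The part of blood content in the Prdx2 change was not tested. Relative to the median gene Gstk1, Prdx2 and Prdx5 changed by 0.85, 0.77 and 0.77.

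The remaining members were not called as deposited. Gpx4 measured 691, 839 and 835 TPM in MI vehicle and 1113, 1269 and 806 TPM in MI prednisone hearts (0.41, adjusted p = 0.0624). Gstp1 measured 157, 147 and 208 TPM against 195, 236 and 169 TPM, and Sod1 378, 347 and 491 TPM against 446, 578 and 392 TPM, so the groups overlapped for both. Mitochondrial Txn2 measured 147, 155 and 170 TPM against 168, 171 and 154 TPM, also overlapping. Rescaled, 11 genes joined the called ones, all higher: Gpx3, Gpx4, Gsta4, Gstm1, Gstm5, Gstp1, Mgst3, Prdx6, Sod1, Txn2 and Txnrd2. Cat, Gclm, Nqo1, Sod3 and Txnrd3 were no longer called. Mitochondrial transcripts took 24.6%, 21.6% and 35.9% of TPM in MI prednisone hearts and 35.2%, 36.7% and 23.1% in MI vehicle hearts, and their part in the scaling was not tested.

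Leaving out MI prednisone replicate 1 gave 7 called genes and leaving out MI prednisone replicate 2 gave 6. Without MI vehicle replicate 3 and MI prednisone replicate 2 together 7 were called, all lower: Cat, Gclm, Gsr, Hmox1, Nqo1 and Txnrd1, and in addition Gclc. Gstk1, Prdx2, Prdx5, Sod3 and Txnrd3 lost their call. Fibroblast markers were lower in MI prednisone than in MI vehicle hearts (6 of 8 called, summed 376 to 664 TPM), as were macrophage markers (5 of 8 called, 307 to 560 TPM), with none at 0; rescaled, 5 and 3 of 8 were called lower. Of the cardiomyocyte markers 4 of 8 were higher, and of 8 atrial markers Myl7, Sln and Myl4 were higher. Neither list moved as a whole. Cardiomyocyte Pln measured 2334, 2288 and 1644 TPM in MI vehicle and 1472, 1343 and 2048 TPM in MI prednisone hearts. Ryr2 (48.5, 45.3 and 35.0 against 25.0, 23.0 and 42.6 TPM), Actc1 and atrial Tbx5 also had lower means with overlap. The part of these differences in the enzyme results was not tested.

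**Figure D3:**
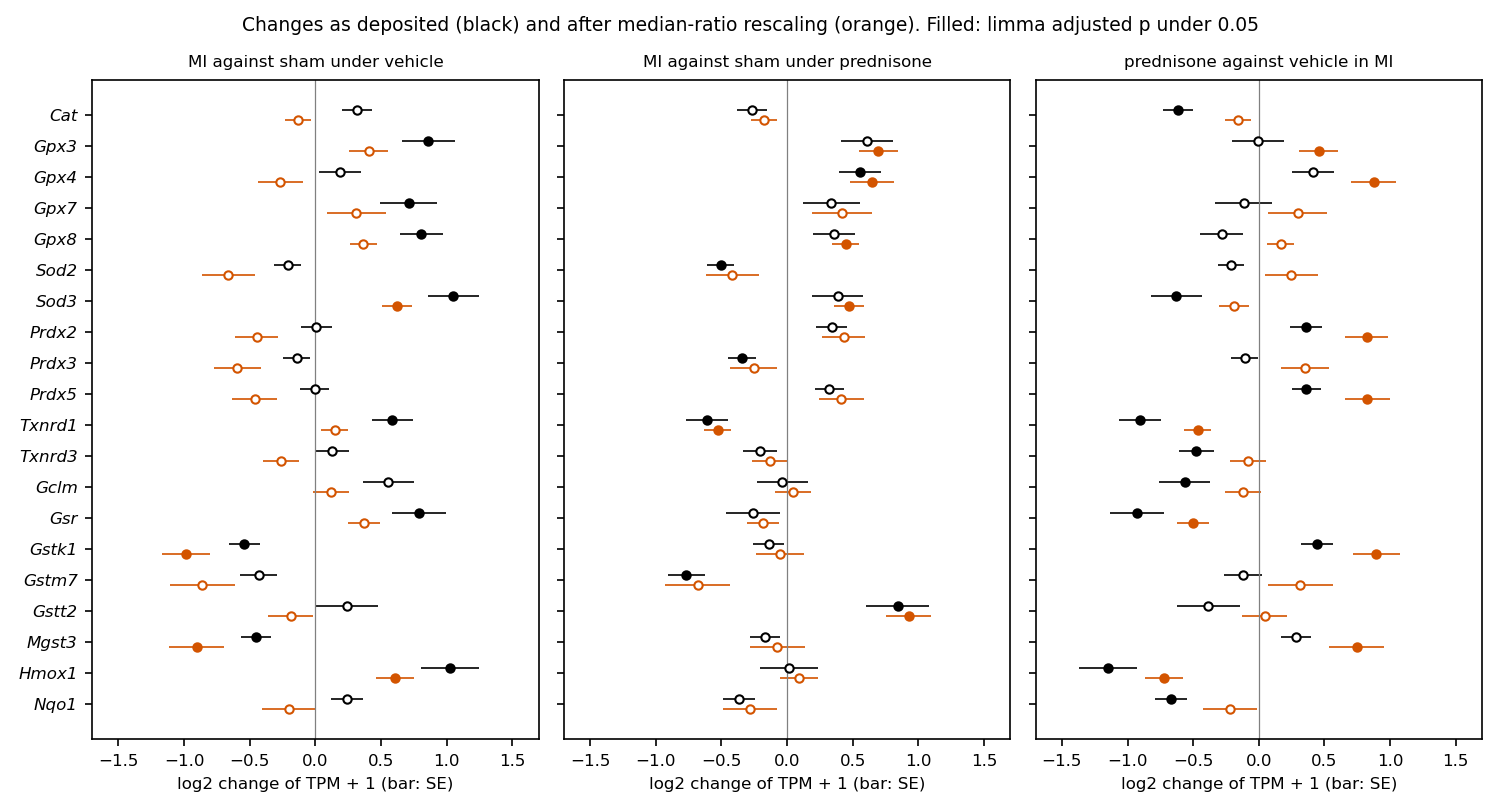
Log2 change of TPM + 1 (x axis, bars are SE) of the 20 genes called in any comparison, for 3 comparisons, as deposited (black) and after median-ratio rescaling (orange); filled points had a limma adjusted p under 0.05. In MI hearts Hmox1, Gsr and Txnrd1 lie below 0 and Gstk1, Prdx2 and Prdx5 above 0 with filled points under both scalings.

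Comparing MI with sham among treated mice asked how infarction looked under the drug. It shares the MI prednisone hearts with the comparison above. Here 2 of the 47 genes rose (Gpx4 and Gstt2) and 4 fell (Gstm7, Sod2, Txnrd1 and Prdx3). Over all genes 16.8% were called, 2.73% higher and 14.1% lower, against 12.8% of the 47. The groups did not overlap for 11 genes that were higher and 6 that were lower, against 12.9% and 32.2% of all genes. The medians were 0.26 over the 47 genes and -0.06 over all genes. Rescaled, 15 of the 47 were called, 14 higher and Txnrd1 lower, against 25.4% of all genes (10.8% higher and 14.6% lower).

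Gstm7 measured 32.1, 31.2 and 34.2 TPM in sham prednisone and 17.6, 18.1 and 20.5 TPM in MI prednisone hearts. It fell by 0.77 (SE 0.14, adjusted p = 0.00541) and kept its call in each of 6 fits that left out 1 library. Sod2 (chr17:13006846-13040063) measured 121, 125 and 128 TPM against 82.9, 82.9 and 96.7 TPM, fell by 0.51 (SE 0.10, adjusted p = 0.00737) and also kept its call in those 6 fits. The groups were fully separated for both genes. Prdx3, like Sod2 a mitochondrial enzyme, measured 135, 140 and 154 TPM against 111, 99.3 and 129 TPM and fell by 0.34 (SE 0.10, adjusted p = 0.0451). Under rescaling Gstm7, Sod2 and Prdx3 were not called (adjusted p = 0.0649, 0.156 and 0.320).

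Txnrd1 measured 19.8, 19.0 and 19.7 TPM in sham prednisone hearts, above the 10.6 to 13.5 TPM of MI prednisone. It fell by 0.61 (SE 0.16, adjusted p = 0.0231) and also under rescaling (-0.53, adjusted p = 0.00663). Gpx4 measured 647, 741 and 745 TPM against 1113, 1269 and 806 TPM and rose by 0.56 (SE 0.16, adjusted p = 0.0362). Gstt2, a theta-class transferase, measured 6.38, 3.79 and 6.08 TPM against 9.39, 14.1 and 8.19 TPM and rose by 0.84 (SE 0.24, adjusted p = 0.0349). For Gstt2 the sham prednisone hearts were the lowest of all groups.

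Without any 1 of the 3 sham prednisone libraries, MI prednisone replicate 1 or MI prednisone replicate 2, the count was 2, Gstm7 and Sod2. Without MI prednisone replicate 3 it was 11. Without MI vehicle replicate 3 and MI prednisone replicate 2 it was 5, as Gpx4 and Prdx3 left and Gpx3 (higher) joined.

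In sham hearts none of the 47 genes was called for prednisone against vehicle by limma, where 0.114% of all genes were (0.0532% higher and 0.0608% lower), and 1 had an unadjusted p under 0.05, where 3.56% of all genes did. That gene was Gstt2 (chr10:75831114-75837424), at 10.9, 13.3 and 10.5 TPM with vehicle and 6.38, 3.79 and 6.08 TPM with prednisone. The groups did not overlap, with a change of -0.99 (SE 0.24, adjusted p = 0.569). Under rescaling the value was -1.07 (adjusted p = 0.0520), and with correction for transcript length Gstt2 was called (-1.01, adjusted p = 0.0326). Its neighbour Gstt3 was at 3.37 ± 0.505 and 2.26 ± 0.588 TPM (SD, n = 3), without overlap and not called (-0.43). Txnrd1 was at 15.8 ± 0.768 and 19.5 ± 0.431 TPM, higher in all 3 treated sham hearts and not called (0.29). The genes that fell with prednisone in MI showed small changes here: Hmox1 -0.14, Nqo1 -0.06, Cat -0.03, Gsr 0.12 and Gclm 0.03, with SE from 0.11 to 0.22. The most abundant genes measured in sham prednisone hearts 647, 741 and 745 TPM (Gpx4), 360, 361 and 410 TPM (Sod1) and 250, 269 and 285 TPM (Prdx2). Gstp1 measured 160, 157 and 179 TPM and Txn2 153, 156 and 169 TPM there. Of these 5 genes, Gpx4, Sod1, Prdx2 and Gstp1 overlapped sham vehicle, and Txn2 lay just above it (141, 146 and 151 TPM). The groups did not overlap for 6 genes that were higher and 3 that were lower, against 15.6% and 2.58% of all genes. The median was 0.03 over the 47 genes and 0.07 over all genes.

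The interaction term tested whether the prednisone change differed between MI and sham hearts. It was called for 5 of the 47 genes, all more negative in MI: Txnrd1 (-1.20, SE 0.22, adjusted p = 0.00890), Gsr (-1.05, SE 0.29, adjusted p = 0.0294), Hmox1 (-1.01, SE 0.32, adjusted p = 0.0434), Nqo1 (-0.61, SE 0.17, adjusted p = 0.0311) and Cat (-0.58, SE 0.16, adjusted p = 0.0288). Over all genes 21.3% were called, 20.7% lower and 0.54% higher, with a median of -0.48 against -0.14 over the 47. Rescaled, only Txnrd1 of the 5 stayed called (-0.68, adjusted p = 0.0259), and Gpx4, Gstk1, Gstp1, Gstt2, Prdx2, Prdx5, Sod1 and Txnrd2 were called higher, 9 of 47 against 8.67% of all genes (4.29% higher and 4.39% lower). With correction for transcript length only Txnrd1 was called, against 2.1% of all genes. Txnrd1 also kept its call in each of 12 fits that left out 1 library, and lost it with the most abundant transcript in place of the sum (-0.43, adjusted p = 0.135) and with length correction and the replicate block together (-0.60, adjusted p = 0.0961). The count fell to 1 (Txnrd1) without sham vehicle replicate 1 or 3, sham prednisone replicate 1 or 3 or MI prednisone replicate 1, to 2 without sham prednisone replicate 2 or MI prednisone replicate 2, and to 3 without MI vehicle replicate 2. Without both airway-rich libraries it was 6, as Hmox1 left and Gclc and Gstm7 joined.

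Because the deposited values are per transcript, each transcript was also fitted on its own, a fit added after the data were seen. Of 110 tested transcripts of 46 genes, 18 fell and 8 rose with prednisone in MI, against 27.1% and 5.92% of all 27769 transcripts (33% in all). In 3 genes (Gss, Gstm4 and Prdx2) transcripts moved in both directions. With MI in vehicle mice 6 rose and 1 fell (2.66% and 0.184% of all transcripts, 2.84% together), with MI in prednisone mice 6 rose and 9 fell (6.75% and 15.6%, 22.3% together), and with prednisone in sham none was called by limma (0.054% of all, 0.0288% higher and 0.0252% lower).

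The values of transcripts that overlap in 1 gene are estimates that share reads. Transcripts of Txnrd1 differed from each other. The 3325-base coding transcript, the most abundant, measured 9.44, 9.70 and 13.8 TPM in MI vehicle and 9.06, 9.85 and 10.8 TPM in MI prednisone hearts, which overlapped (-0.12, adjusted p = 0.563). The 2297-base coding transcript measured 6.55, 9.18 and 9.65 TPM in MI vehicle and 0.554, 1.11 and 1.40 TPM in MI prednisone hearts. In the 6 sham hearts it was at 4.95 to 8.82 TPM, so all 3 MI prednisone hearts were below every other library (-2.23, SE 0.20, adjusted p = 7.0e-05). Both transcripts start inside the promoter window printed above, at chr10:82859179 and chr10:82859207. A 3531-base transcript that starts further downstream measured 2.65, 5.14 and 7.08 TPM against 0.969, 2.14 and 1.12 TPM and was not called (-1.26, adjusted p = 0.0552).

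Other genes showed shifts between transcripts of the same kind in MI prednisone hearts. Of the Gpx4 transcripts tested, only a 280-base retained-intron transcript (chr10:80055998-80056363) was called with prednisone in MI. It measured 197, 235 and 20.9 TPM in MI prednisone hearts and 0 to 5.93 TPM in the other 9 libraries (5.38, SE 1.10, adjusted p = 0.00461 against MI vehicle). The 959-base coding transcript of Gpx4 measured 465, 535 and 484 TPM in MI vehicle against 580, 674 and 422 TPM and was not called (0.15, adjusted p = 0.481). For Prdx2 a 549-base retained-intron transcript measured 184, 208 and 121 TPM in MI prednisone hearts, above the 70.1 to 98.7 TPM of the other 9 libraries (0.94, adjusted p = 0.00349). The 1500-base coding transcript of Prdx2 fell from 107, 96.1 and 94.1 TPM in MI vehicle to 80.3, 66.6 and 70.6 TPM (-0.45, adjusted p = 0.0211). A 597-base processed transcript of Gstm1 measured 41.7, 41.0 and 31.9 TPM in MI prednisone hearts and 0.969 to 6.63 TPM in the others (3.77, adjusted p = 0.000143).

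Some losses were of the same kind. A 611-base transcript of Prdx1, a cytosolic peroxiredoxin, measured 42.9, 32.4 and 69.2 TPM in MI prednisone hearts and 73.9 to 132 TPM in the other 9 libraries (-1.18 against MI vehicle, adjusted p = 0.00576). Its 2294-base transcript was not called there (0.13, adjusted p = 0.479). For Gsr a 718-base processed transcript was at 0 in all 3 MI prednisone hearts (4.43, 1.98 and 2.25 TPM in MI vehicle). Its 2673-base coding transcript, the most abundant, measured 8.42, 9.92 and 15.4 TPM against 6.63, 8.93 and 5.89 TPM. In the fit of each transcript the coding one was not called (-0.57, adjusted p = 0.0570). With only the most abundant transcript of each gene fitted, Gsr kept its call for prednisone in MI. For Cat the 2613-base coding transcript itself fell (-0.55, adjusted p = 0.00898). Nqo1, Sod3, Sod2 and Prdx3 have 1 transcript each in the table, and the main Hmox1 transcript of 1569 bases fell like the gene (-1.13, adjusted p = 0.0037). Summing protein-coding transcripts only, Gpx4 and Gstt2 lost their call for MI under prednisone, and Gclm and Prdx2 lost theirs for prednisone in MI. Gsr lost its call in the interaction.

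**Figure D4:**
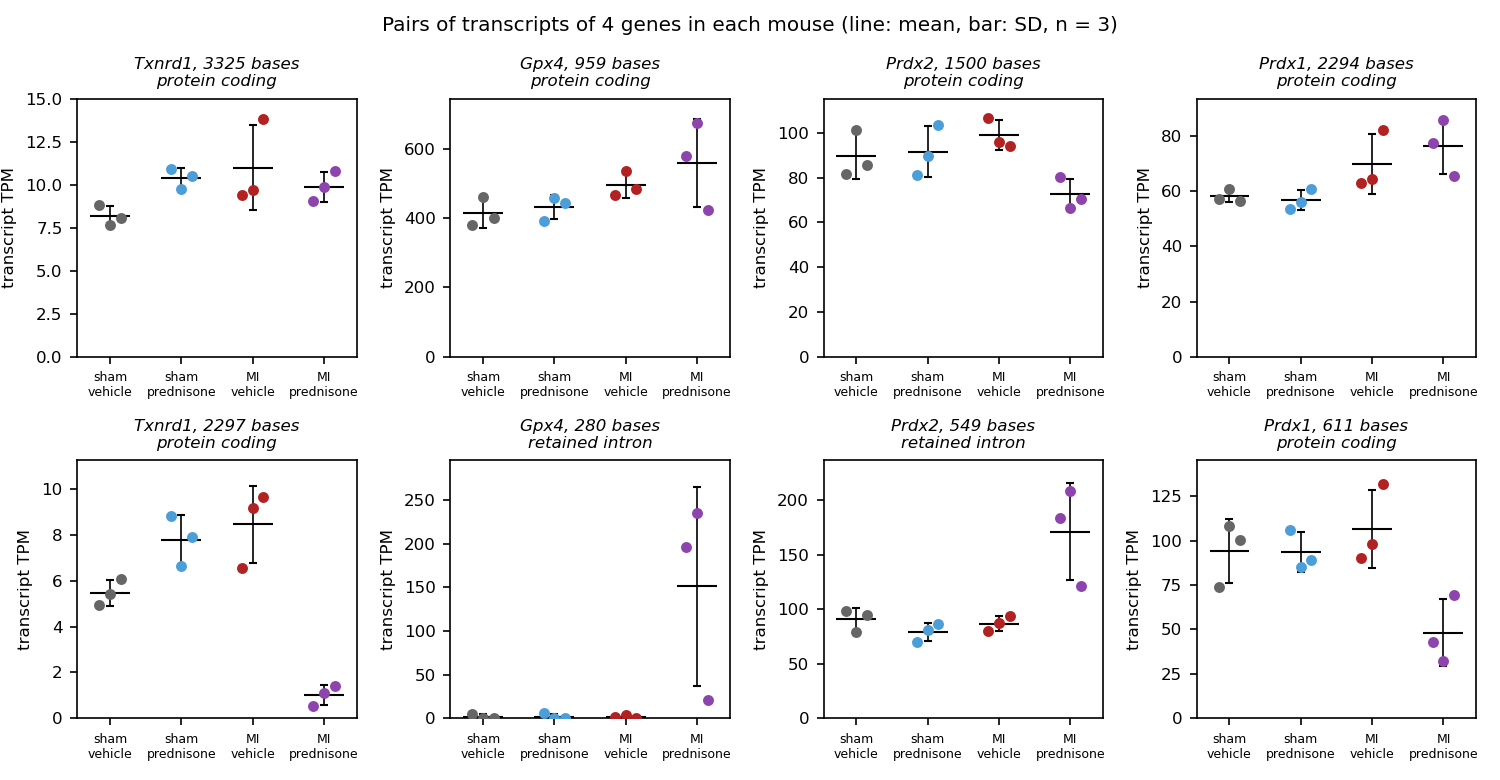
Level in TPM (y axis, from 0) of pairs of transcripts of Txnrd1, Gpx4, Prdx2 and Prdx1 in each mouse of the 4 groups (x axis); points are mice, lines means and bars SD (n = 3). In MI prednisone hearts the 2297-base Txnrd1 and 611-base Prdx1 transcripts lie below all other libraries and the 549-base Prdx2 transcript above them.

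Several members were highest in the pair of libraries with the most airway markers. Gpx2, a peroxidase of epithelia, measured 5.90 TPM in MI vehicle replicate 3 and 9.61 TPM in MI prednisone replicate 2, and at most 0.888 TPM in the other 10 libraries. Mgst2 measured 12.4 and 5.69 TPM in that pair and at most 1.64 TPM elsewhere. Gsta3 measured 38.6 and 51.9 TPM against 6.64 to 15.8 TPM, and Gsto1 183 and 254 TPM against 95.9 to 117 TPM. Gclc, Mgst1 and Gstz1 had their highest values in the same pair, at 13.2 and 9.76, 226 and 181, and 60.2 and 41.6 TPM. Gpx2 was not tested. None of the other 6 genes was called as deposited with all libraries, while Mgst1 was called higher for MI in prednisone mice under rescaling and for MI in vehicle mice with protein-coding transcripts only. With the pair left out, Mgst1 was called for MI in vehicle mice and, rescaled, for MI in prednisone mice. Gclc was called with the pair left out for prednisone in MI and in the interaction. In MI prednisone replicate 3, with 1783 TPM of airway markers, Gsta3 and Mgst2 were at 14.6 and 0.619 TPM, inside the range outside the pair. Gsto1 was at 117 TPM there, the highest value outside the pair. Gpx2 was at 0.888 TPM in that library and 0.505 TPM in MI vehicle replicate 1. It was at 0.114 and 0.111 TPM in sham vehicle replicates 1 and 2, and at 0 in the remaining libraries. The 8 adipocyte markers were also highest in the same pair of libraries, at 3866 and 2867 TPM against 587 to 1843 TPM in the other 10, with none at 0 and none called as deposited. The part of either tissue in these values was not tested. Where the airway RNA came from was not tested.

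**Figure D5:**
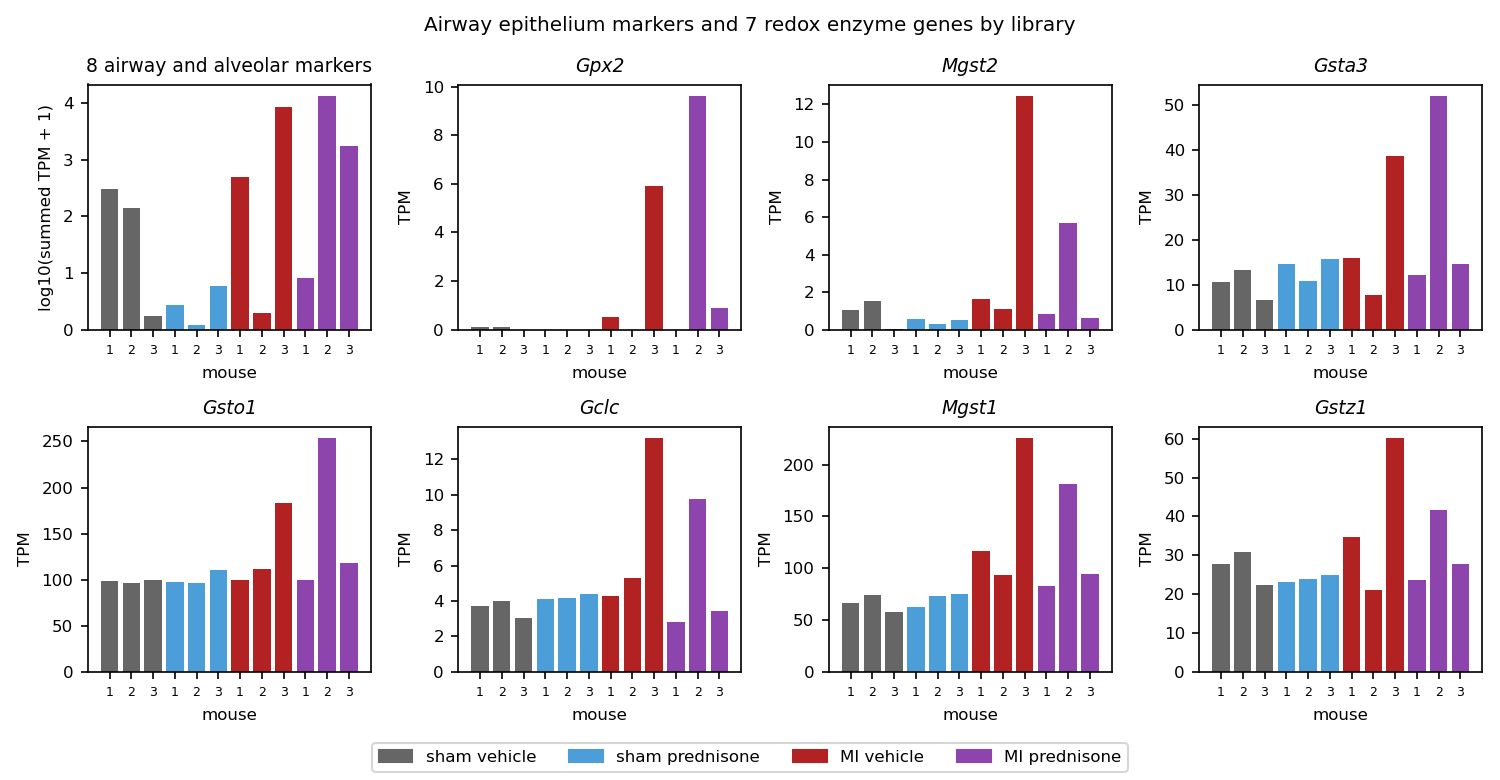
Summed airway and alveolar epithelium markers (log10 of summed TPM + 1, first panel) and TPM of 7 genes (y axes from 0) in each of the 12 libraries; bars are single mice, coloured by group. In each of the 7 genes the bars of MI vehicle mouse 3 and MI prednisone mouse 2 are the highest.

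Other genes of the redox network were given by fixed lists. The counts below read against the shares of all genes given above, 15.1% higher for MI in vehicle mice, 34.9% lower for prednisone in MI, 2.73% higher and 14.1% lower for MI in prednisone mice, and 20.7% lower for the interaction. NADPH oxidases make superoxide: 5 of 7 tested rose with MI in vehicle mice, led by Nox4 (1.65), Ncf1 (1.37) and Ncf4 (1.26), and 4 of 7 fell with prednisone in MI, led by Cybb (-1.43), Nox4 (-1.22) and Ncf1 (-1.11); rescaled, the counts were 3 and 3. Nox4 measured 0.448, 0.678 and 0.485 TPM in sham vehicle, 2.60, 5.36 and 3.82 TPM in MI vehicle and 1.39, 1.05 and 0.800 TPM in MI prednisone hearts, with no overlap between these groups. In all 3 sham vehicle hearts Nox4 was under 1 TPM, the level of the filter, and the 3 MI vehicle hearts were enough to pass it. The phagocyte oxidase genes Cybb, Ncf1 and Ncf4 are expressed in macrophages, whose markers moved in the same direction. The part of macrophage content in the oxidase changes was not tested. Of the selenoprotein list, 4 of 17 rose with MI in vehicle mice (Selenop 0.94, Selenon 0.64 and Selenom 0.62 the largest), and 6 of 17 fell with prednisone in MI (Sephs1 -1.08, Selenop -1.03 and Selenoi -0.80 the largest), the latter a share near that of all genes. Under rescaling none of the 17 was called with MI in vehicle mice, and with prednisone in MI 3 were higher and 2 lower. With MI in prednisone mice Selenoi (-0.83) and Selenot (-0.60) fell, and rescaled 3 of the list were higher and 2 lower.

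The NRF2 control list had 9 tested genes. With MI in vehicle mice 3 rose (Maff 1.08, Mafk 0.87 and Sqstm1 0.56), and none under rescaling. With prednisone in MI 6 fell, Bach1 (-1.15), Nfe2l1 (-0.87) and Maff (-0.83) the most, and among them Nfe2l2 itself (-0.76, adjusted p = 0.0045). Nfe2l2 measured 28.3, 33.1 and 46.5 TPM in MI vehicle and 19.3, 22.1 and 19.9 TPM in MI prednisone hearts, and the repressor Bach1 measured 6.29, 6.60 and 12.8 TPM against 3.04, 2.76 and 3.59 TPM. The groups were separated for both genes, so activator and repressor fell together. Under rescaling Bach1 (-0.75) and Nfe2l2 (-0.31) stayed called lower and Cul3 was called higher (0.34). With MI in prednisone mice Bach1 (-0.81) and Nfe2l1 (-0.76) fell, and Bach1 alone under rescaling. In the interaction 4 of the 9 were called lower (Bach1 -1.19, Nfe2l1 -1.02 and Mafk -0.91 the largest), as were 2 NADPH oxidase genes (Cybb -1.55, Nox4 -1.35), 4 of the selenoprotein list and 5 of the other thiol enzymes; rescaled, no gene of the first 3 of these lists was called.

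Of 12 genes for NADPH supply, MI in vehicle mice raised Me2 (1.03) and Nadk (0.87) and lowered Me3 (-0.33), and prednisone in MI lowered 4 (Me2 -1.28, Nadk -0.72, Nadk2 -0.58 and Nnt -0.55). Nnt (-0.94) and Nadk2 (-0.66) also fell with MI in prednisone mice. Under rescaling the list had 0 higher and 1 lower (Me3) for MI in vehicle mice, 1 higher (Taldo1) and 1 lower (Me2) for prednisone in MI, and 2 higher (Taldo1 and Pgd) and 1 lower (Nnt) for MI in prednisone mice. Of 14 tested genes for cystine import and glutathione turnover, 2 rose with MI in vehicle mice (Dpep2 1.00, Slc3a2 0.85), 1 rose with MI in prednisone mice (Anpep 1.28) and 4 fell with prednisone in MI (Dpep2 -0.74, Chac1 -0.65 and Slc25a40 -0.54 the largest). Dpep2 was low, at 0.840, 0.488 and 0.430 TPM in sham vehicle and 1.73, 2.45 and 2.31 TPM in MI vehicle hearts. Its MI vehicle values were enough to pass the filter of 1 TPM. Rescaled, none of the 14 was called with MI in vehicle mice, and the direction turned for prednisone in MI, with 2 higher (Ggct and Slc25a39) and none lower. Of 25 other thiol and glyoxal enzymes, 4 rose with MI in vehicle mice (Txndc5 1.14, Srxn1 0.67 and Txndc17 0.50 the largest; rescaled, 1 higher and 2 lower), and with prednisone in MI 7 fell (Sesn3 -1.06, Txndc5 -0.99 and Msrb3 -0.73 the largest) and 1, the mitochondrial glutaredoxin Glrx5, rose (0.51). The lower counts of these 3 lists are below the share of all genes. Under rescaling the split of the 25 turned to 11 higher and 2 lower. With MI in prednisone mice 2 of the 25 fell (Msrb3 -0.68, Sesn1 -0.47) and 2 rose, Hagh (0.46) the more, against 7 higher and 1 lower under rescaling. No gene of the 6 lists was called for prednisone in sham hearts by limma.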

How the data were processed

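RNA from the myocardium of 12 mice (4 groups of 3) was sequenced from stranded mRNA libraries, per the labels' protocols. The authors deposited a table of TPM values for 105129 transcripts with gene symbols; the submitters' processing notes name Trimmomatic, HISAT2, kallisto and mm10, without versions or roles. Of the transcript IDs, 98.7% were found in GENCODE M21 (GRCm38), which supplied coordinates, lengths and transcript types; the annotation release used upstream is not given in the sources used here. TPM keep no read depth, so no counting intervals are given.

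Transcripts were summed to genes, 13158 genes that reached 1 TPM in 3 or more libraries were kept, and log2(TPM + 1) was fitted with limma 3.58.1 (R 4.3.3, lmFit, eBayes with trend) on all 12 libraries with 4 group means. Every adjusted p in the text is limma's, Benjamini-Hochberg adjusted over all features tested, with 0.05 as the threshold. Changes are on the log2(TPM + 1) scale, which understates those of low genes. An exact permutation test of 3 against 3 cannot go below 0.1. Labels do not tie replicates to anything beyond separate samples. Each library was read as 1 mouse, and the p-values weigh the changes against the spread between these samples. The fit was tested on simulated data.

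Members and lists were chosen with earlier results of these data known. Values per library are given for members called in any comparison and for the most abundant member of each role; up to 3 called genes are named per pathway list and comparison, those with the largest change, and Nfe2l2, Nnt, Cul3, Taldo1, Pgd, Ggct and Slc25a39 were named in addition after their values were seen, as were the transcripts described. Alternatives were a pseudocount of 0.1, no filter, median-ratio rescaling, a loess correction for transcript length (span 0.5), the replicate number as a block, the most abundant transcript, the groups compared only and leaving out each library. The airway list, leaving out both airway-rich libraries, protein-coding transcripts only and the fit of each transcript were added after seeing the data. Promoter windows are RefSeq's (GRCm38.p6), matched by symbol for 47 of 54 genes.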

Additional observations from a re-analysis of the deposited data

Results flagged for a closer look

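For 5 genes the prednisone change differed between MI and sham hearts by the interaction term of limma, a share of the 47 tested (10.6%) below the 21.3% of all genes called. The difference (change in MI minus change in sham, log2 scale) was -1.20 for Txnrd1, -1.05 for Gsr, -1.01 for Hmox1, -0.61 for Nqo1 and -0.58 for Cat. For Txnrd1 all 3 treated sham hearts were above, and all 3 treated MI hearts below, their vehicle group. Relative to the median gene the differences were -0.72, -0.57, -0.53, -0.13 and -0.11, so for Nqo1 and Cat most of the difference was shared with the median gene. Under rescaling only Txnrd1 of the 5 stayed called. Besides the fits that left out 1 library there were 10 alternative fits. Of these, 8 kept the call of Txnrd1, 6 that of Nqo1, 5 that of Cat and 3 each those of Gsr and Hmox1.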

How the results depend on the processing

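Of 31 calls of single members over the 5 comparisons, 31 were kept with a pseudocount of 0.1, 26 with protein-coding transcripts only, 20 without the filter, 18 with the most abundant transcript, 18 without both airway-rich libraries, 14 under rescaling, 14 with length correction and 5 of 26 with only the groups compared. Percentages in brackets below are shares of all genes called, given only for the main fit, rescaling and length correction. Members called for MI against sham in vehicle mice (9, 16%) became 4 under rescaling (6.46%) and 5 with length correction (5.65%). They became 0 with only the 2 groups, 15 with coding transcripts only and 5 without the airway-rich libraries. Without those libraries and rescaled there were 5, and leaving out 1 library gave 0 to 16. For MI against sham in prednisone mice (6, 16.8%) the counts were 15 rescaled (25.4%) and 3 without the filter. They were 11 rescaled without the airway-rich libraries and 2 to 11 leaving out 1 library. For prednisone in MI (11, 37.4%) they were 17 rescaled (28.2%) and 1 with only the 2 groups. They were 7 without the airway-rich libraries, 14 rescaled without them, and 6 to 13 leaving out 1 library. For prednisone in sham (0, 0.114%) length correction gave 1 (0.114%), and leaving out 1 library gave 0. For the interaction (5, 21.3%) the counts were 9 rescaled (8.67%), 3 without the filter, 1 with length correction (2.1%), and 1 to 7 leaving out 1 library. Signs turned for Txnrd3 with prednisone in MI under length correction (0.015) and for Prdx2 with coding transcripts only (-0.052). Rescaling and leaving out libraries change the values by construction; other causes were not tested. Unknown depth limits the low genes most.

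No pairing of the mice by replicate number was seen: 4 of 18 same-numbered pairs correlated above 0.1 (range -0.58 to 0.28), and 1 of 12 libraries was closest to its own number. The correlations were over all genes, of deviations from group means, so a smaller shared factor could go unseen. With the replicate block the counts were 7, 5, 9, 0 and 4 in the same order. With the block and length correction together they were 0, 2, 3, 0 and 0, and Txnrd3 was at 0.015 there too.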

Other observations

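Txnip, which binds and inhibits thioredoxin, measured 249, 216 and 281 TPM in MI vehicle and 157, 196 and 111 TPM in MI prednisone hearts, and fell (-0.71, limma adjusted p = 0.0248). In sham hearts it was at 260, 216 and 156 TPM with vehicle and 139, 136 and 128 TPM with prednisone, without overlap and not called. Srxn1, which repairs over-oxidised peroxiredoxins, measured 8.13, 8.25 and 8.52 TPM in sham vehicle, 11.6, 10.5 and 10.1 TPM in sham prednisone, 10.4, 15.8 and 16.1 TPM in MI vehicle and 10.2, 9.95 and 11.1 TPM in MI prednisone hearts. The sham vehicle hearts were below all other libraries. Slc7a11, the cystine importer, reached 2.34 TPM in MI vehicle replicate 3 and at most 0.112 TPM in the other 11 libraries. These 3 genes were picked after their values were seen.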
